A study of Mus musculus with 16 samples.

Results

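Transforming growth factor beta (TGF-beta) ligands, their receptors and a set of YAP-type target genes were examined in mouse embryonic stem (ES) cells and in the embryoid bodies made from them, with and without the TFIID subunit gene Taf4a. The 9 genes were chosen by name from the 27807 genes of the deposited table, with earlier results of these data known. They comprised the 3 ligands Tgfb1, Tgfb2 and Tgfb3, the 2 receptors Tgfbr1 and Tgfbr2, and the 4 target genes Ctgf, Cyr61, Thbs1 and Ankrd1. All 9 had a mean of at least 10 normalised counts and were tested among 16124 genes.

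TGF-beta ligands are secreted in a latent form held by binding proteins in the extracellular matrix. Once released, a ligand dimer binds the type II receptor, encoded by Tgfbr2, which phosphorylates the type I receptor, encoded by Tgfbr1, and this kinase in turn phosphorylates Smad2 and Smad3. YAP and TAZ, encoded by Yap1 and Wwtr1, are coactivators restrained by the kinases of the Hippo pathway that act on promoters and enhancers through TEAD factors. Ctgf, Cyr61 and Ankrd1 are widely used as readouts of YAP and TAZ, and Ctgf and Thbs1 also respond to TGF-beta in many cell types.

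The libraries held polyadenylated RNA of ES cells grown with LIF on inactivated feeder fibroblasts and of embryoid bodies differentiated with retinoic acid towards neurons. Wild-type cells (Taf4+/+ in the labels, WT here) and cells homozygous for the null allele (Taf4-/-, KO here) were sampled as ES cells, as embryoid bodies before retinoic acid (EB4), a day after its addition (EB5) and at the end of the treatment (EB8). Each of the 8 groups had 2 libraries, and the study used 2 independent lines of each genotype, derived from blastocysts of crosses between heterozygous mice. The labels do not tie a replicate number to a line, so that the p-values measure the spread between these libraries, which may be technical or between lines. The main fit took the libraries as independent, although the same lines may recur over the stages. Fits with the replicate number as a block are given in the closing section.

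Depth, as whole reads recovered from the normalised values, ran from 22442118 to 40711826 reads per library, and the 4 ES libraries were the deepest, so that stage and depth cannot be told apart between ES and later stages. Taf4a itself was not lower in KO (1972.8 to 2400.0 normalised counts, against 1590.9 to 1959.6 in WT, limma adjusted p from 0.194 to 0.525 over the 4 stages). A count per gene does not resolve the deleted exons, so the genotype labels were not checked by it. WT ES replicate 2 stood apart from the other WT libraries in the Y-linked gene Ddx3y, listed at 0 there against 173.6 to 1236.9 elsewhere in WT. The 8 KO libraries had 0.0 to 35.9 normalised counts of Ddx3y, so that all WT libraries but that one differed from KO in this gene, and genotype cannot be told apart from the sex or origin of the lines. None of the 9 genes lies on a sex chromosome. The summed level of 8 pluripotency markers was 98859 to 141823 normalised counts in the ES libraries of both genotypes, 1389 to 1827 in WT EB8 and 25070 to 28675 in KO EB8. The 7 measured neural progenitor markers summed to 25215 to 28029 in WT EB8 and to 4834 to 4871 in KO EB8, so that the EB8 groups compared below differ in these markers. At EB4 the pluripotency sums were 25895 to 49264 in WT against 79612 to 116707 in KO, and the neural progenitor sums were 11210 to 11691 against 3933 to 5922. At EB5 the pluripotency sums were 8554 to 12300 in WT against 37976 to 68707 in KO. The part of these marker differences in the results below was not tested.

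Promoter sequences are shown for the targets in which the core TEAD motif was found, since TEAD factors bring YAP and TAZ to DNA. The 250 bases before the start of each gene were taken from RefSeq (GRCm38.p6) and placed on build NCBI37 by an exact match. RefSeq promoters were matched for 6 of the 9 genes. Those of Tgfb3, Ctgf and Thbs1 were not matched. The motif searched was GGAATG on either strand, and its copies are in capitals, with each sequence written 5′ to 3′ on the strand of the gene.
Ankrd1, chr19:36194335-36194584, minus strand: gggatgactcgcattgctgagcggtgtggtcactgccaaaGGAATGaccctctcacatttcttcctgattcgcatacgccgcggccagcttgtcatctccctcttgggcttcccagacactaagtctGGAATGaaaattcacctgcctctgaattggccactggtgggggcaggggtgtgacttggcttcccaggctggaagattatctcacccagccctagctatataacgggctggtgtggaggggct
Cyr61 (Ccn1 in RefSeq), chr3:145312950-145313199, minus strand: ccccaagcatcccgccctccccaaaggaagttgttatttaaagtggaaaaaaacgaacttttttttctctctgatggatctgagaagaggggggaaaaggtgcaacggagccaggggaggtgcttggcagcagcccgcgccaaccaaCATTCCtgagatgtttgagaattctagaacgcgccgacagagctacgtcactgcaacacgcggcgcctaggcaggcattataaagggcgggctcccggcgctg
The Ankrd1 promoter held 2 copies, at -210 and -123 bases from the start of the gene, and that of Cyr61 held 1, at -103. Of 27025 RefSeq promoters of the same length, taking the first listed for each gene, 3414 (12.63%) held the motif. The promoters of Tgfb1, Tgfb2, Tgfbr2 and both promoters of Tgfbr1 did not hold these letters in the window. The short Smad-binding motif CAGAC, searched on both strands, occurred in 42.11% of the 27025 promoters. It was found in those of Tgfb2, Tgfbr2 and Ankrd1, and in 1 of the 2 of Tgfbr1.

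**Figure D1:**
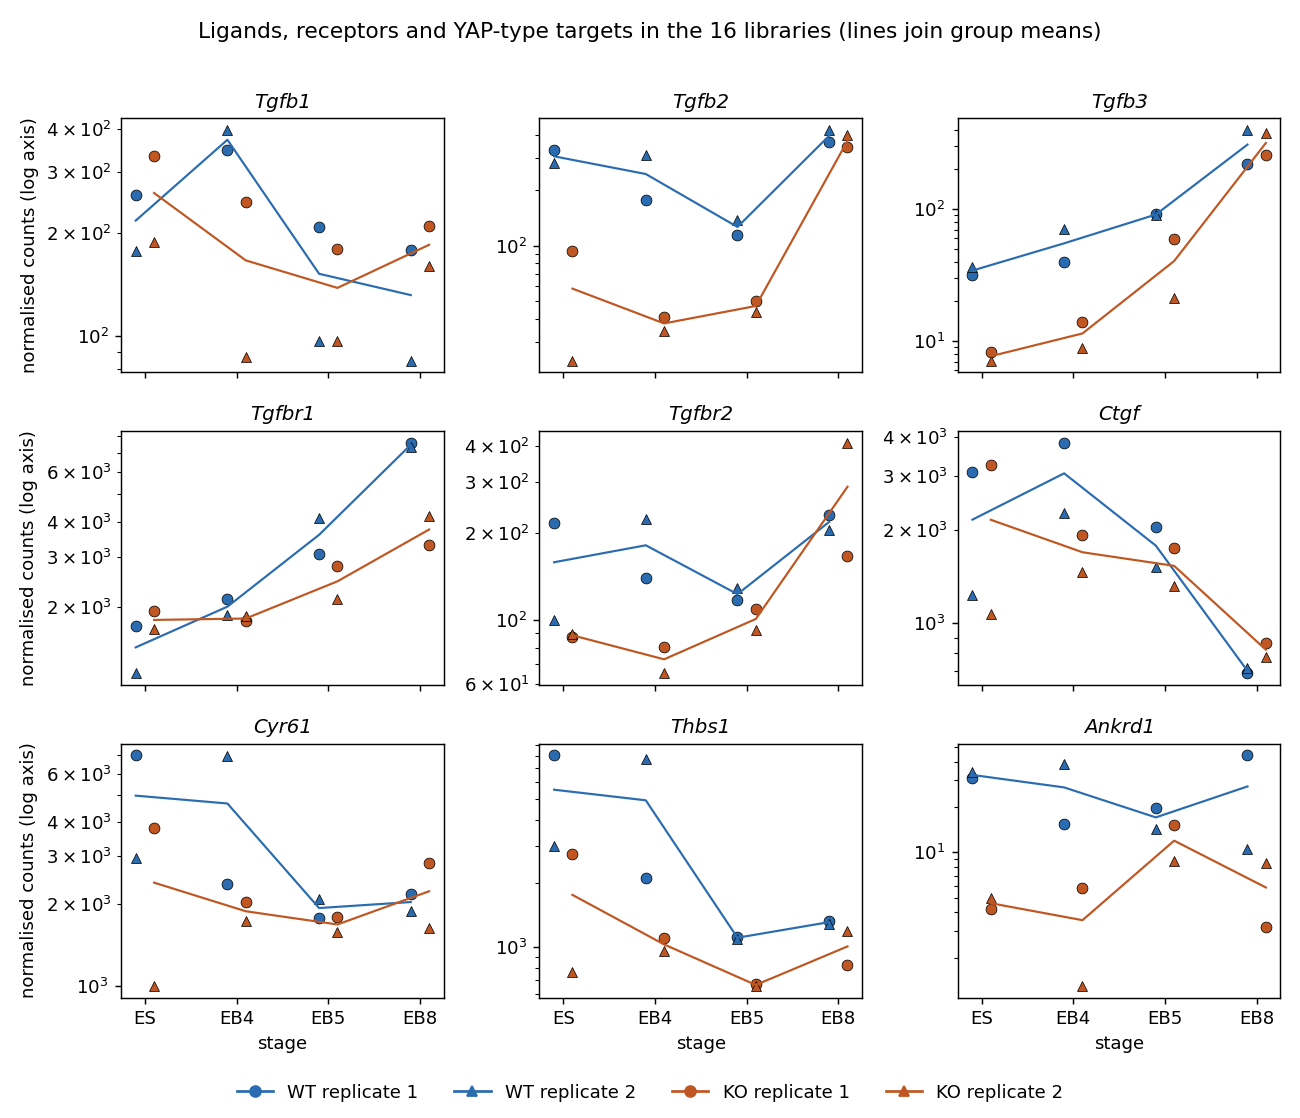
Normalised counts of the 9 genes (log axis) in each of the 16 libraries, by stage on the horizontal axis. Circles are replicate 1, triangles replicate 2, WT is blue, KO is orange, and lines join the means of the 2 libraries. Tgfb2 and Tgfb3 lie lower in KO at ES, EB4 and EB5 and meet the WT values at EB8. Tgfbr1 lies lower in KO narrowly at EB4, and at EB5 and EB8.

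The ligands were read first. Tgfb2 (ENSMUSG00000039239, chr1:188447065-188529871 on build NCBI37, minus strand, a protein-coding gene whose span also holds a small nucleolar RNA gene) had 329.5 and 281.4 normalised counts in the WT ES libraries and 93.0 and 23.6 in KO ES. At EB4 the values were 177.5 and 312.0 in WT against 40.9 and 34.5 in KO, and at EB5 they were 113.9 and 138.4 against 50.2 and 43.6. At EB8 they were 365.4 and 424.6 in WT versus 342.9 and 398.4 in KO. The KO libraries thus lay below both WT libraries at ES, EB4 and EB5, and the genotypes overlapped at EB8.

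The log2 change of Tgfb2 (KO minus WT, on the log2 of value + 1) was -2.62 with a standard error of 0.50 at EB4 (limma adjusted p 0.0148), a 6.13-fold lower level. At EB4 6.12% of all genes tested passed the threshold in either direction. At ES the change was of similar size, -2.67 ± 0.50 (SE), but did not pass (limma adjusted p 0.0964), at a stage where 0.0% of genes passed by limma (1846 at an unadjusted p below 0.05, 0 by edgeR and 465 by DESeq2). Tgfb2 at ES passed with DESeq2 (adjusted p 0.000435) and, by limma, without KO ES replicate 1 (-3.64, limma adjusted p 0.0315), and was -1.70 without KO ES replicate 2 (0.342). It was -1.40 at EB5 (limma adjusted p 0.134) and -0.09 at EB8 (limma adjusted p 0.919). The call at EB4 was lost when WT EB4 replicate 2 (limma adjusted p 0.0844) or KO EB4 replicate 2 (0.14) was left out, and with a fit of the 4 EB4 libraries alone (0.141).

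Tgfb3 (ENSMUSG00000021253, chr12:87397694-87419991, minus strand), the ligand with the widest span of values, ran from 7.15 normalised counts in KO ES replicate 2 to 398 in WT EB8 replicate 2, a ratio of 55.7. At ES it had normalised counts of 31.9 and 36.7 in WT versus 8.3 and 7.1 in KO, from 10 reads in each KO library. At EB4 it had 39.5 and 70.8 in WT versus 14.0 and 8.9 in KO. Both stages show KO values well under the WT values.

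By EB5 the Tgfb3 counts were 92.2 and 90.0 in WT versus 59.7 and 21.3 in KO, and by EB8 they were 219.5 and 398.1 against 256.4 and 378.2. The groups were apart at EB5 and overlapped at EB8. The log2 change of Tgfb3 passed at EB4, where it was -2.14 ± 0.52 (SE, limma adjusted p 0.0355), and not at ES (-2.01, limma adjusted p 0.148), EB5 (-1.32, 0.172) or EB8 (0.07, 0.939). With DESeq2 the ES change passed (adjusted p 0.0196). The EB4 call was close to the threshold. It was lost when any of the 4 EB4 libraries was left out (limma adjusted p from 0.0557 to 0.269), without the filter on low values (0.0627), with quantile normalisation (0.0508) and with a fit of the EB4 libraries alone (0.18).

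Tgfb1 (ENSMUSG00000002603, chr7:26472021-26490096, plus strand), the ligand best known from immune and mesenchymal cells, did not pass in any comparison of the limma fit without a replicate block. It had normalised counts of 256.7 and 177.0 in WT ES versus 333.7 and 188.0 in KO ES, and 347.4 and 397.8 in WT EB4 against 245.3 and 86.8 in KO EB4. The EB4 groups did not overlap, their log2 difference being -1.34 (limma adjusted p 0.176), while the ES groups did. At EB5 the counts were 207.0 and 96.6 in WT versus 179.2 and 97.0 in KO, and at EB8 they were 178.5 and 84.7 against 208.9 and 159.8. The genotypes overlapped at both stages.

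Per kilobase of exon, the ligands differed in their share of the ligand transcripts. Tgfb1 made up 53.3% ± 4.49 (SD, n = 2) of the summed level of the 3 ligands per kilobase in WT ES and 88.5% ± 3.93 in KO ES. Tgfb2 made up 40.2% ± 2.69 in WT ES and 9.34% ± 4.65 in KO ES. The share of Tgfb3 was 6.57% ± 1.80 and 2.12% ± 0.716 in these groups. At EB8 the 3 ligands had shares of 23.6%, 36.4% and 40.1% in WT and of 30.1%, 31.6% and 38.4% in KO, in the order Tgfb1, Tgfb2, Tgfb3. For Tgfb1 the SD at EB8 was 13.7 percentage points in WT and 8.08 in KO. The shares were not tested.

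**Figure D2:**
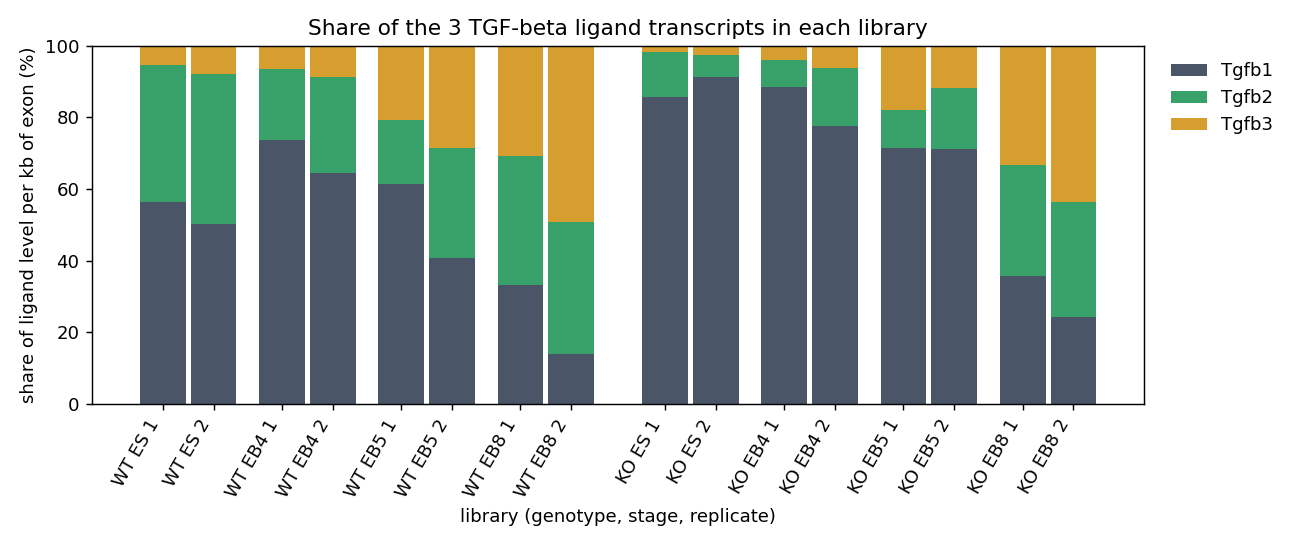
Share of Tgfb1, Tgfb2 and Tgfb3 in their summed level per kilobase of exon (percent, vertical axis) in each of the 16 libraries (horizontal axis). The grey Tgfb1 share averaged 88.5% in KO ES against 53.3% in WT ES, and 30.1% in KO EB8 against 23.6% in WT EB8.

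Among the receptors, Tgfbr1 (ENSMUSG00000007613, chr4:47366094-47427803, plus strand), the type I receptor kinase, had the highest level per kilobase of exon among the ligands and receptors in WT EB8, as given below. It had normalised counts of 1720.2 and 1169.6 in WT ES versus 1935.1 and 1674.6 in KO ES, and 2136.1 and 1884.0 in WT EB4 against 1793.3 and 1858.1 in KO EB4. At EB5 it had 3075.2 and 4125.7 in WT versus 2799.7 and 2137.2 in KO. At EB8 the values were 7607.0 and 7339.4 in WT versus 3307.6 and 4208.8 in KO. Both KO libraries lay below both WT libraries at EB4, narrowly, and at EB5 and EB8, and the genotypes overlapped at ES.

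The log2 change of Tgfbr1 was -1.0 ± 0.22 (SE) at EB8, a 2.00-fold lower level in KO (limma adjusted p 0.00639). At that stage 22.9% of all genes tested passed. The changes at ES (0.34, limma adjusted p 0.598), EB4 (-0.14, 0.752) and EB5 (-0.54, 0.179) did not pass. Without KO EB8 replicate 1 the EB8 change was -0.83 and did not pass (limma adjusted p 0.0618).

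Tgfbr2 (ENSMUSG00000032440, chr9:115993415-116084383, minus strand), the type II receptor that binds the ligand first, was less abundant per kilobase. In WT EB8 its mean level per kilobase of exon was 27.0 ± 2.24 (SD, n = 2) normalised counts, against 1144 ± 29.0 for Tgfbr1. It had normalised counts of 216.6 and 99.7 in WT ES versus 87.2 and 89.3 in KO ES, and 139.2 and 223.0 in WT EB4 against 80.6 and 65.1 in KO EB4. The KO libraries lay below both WT libraries at these stages.

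At EB5 the Tgfbr2 counts were 116.7 and 128.5 in WT versus 109.0 and 92.1 in KO, and at EB8 they were 231.0 and 205.4 in WT versus 166.7 and 411.2 in KO. The KO EB8 libraries lay on either side of the WT values. None of the genotype differences of Tgfbr2 passed, with log2 changes of -0.73 at ES (limma adjusted p 0.591), -1.27 at EB4 (0.117), -0.29 at EB5 (0.764) and 0.26 at EB8 (0.717).

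Among the 4 target genes, replicates of a group spread widely at ES and EB4. Thbs1 (ENSMUSG00000040152, chr2:117937612-117952869, plus strand) encodes thrombospondin, a matrix glycoprotein that can activate latent TGF-beta. It had normalised counts of 8078.6 and 3014.5 in WT ES versus 2766.9 and 766.2 in KO ES, and 2110.8 and 7774.1 in WT EB4 against 1101.7 and 958.4 in KO EB4. At EB5 it had 1120.7 and 1095.9 in WT versus 670.3 and 655.5 in KO, and at EB8 1334.7 and 1291.7 against 826.1 and 1189.9. Thbs1 was the single gene of the 9 for which both KO libraries lay below both WT libraries at all 4 stages. Its log2 changes were -1.76, -1.98, -0.74 and -0.40 in the order of the stages, and none passed (limma adjusted p 0.309, 0.0827, 0.543 and 0.685).

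Cyr61 (ENSMUSG00000028195, chr3:145309935-145312949, minus strand) encodes a matricellular protein of the CCN family. It had normalised counts of 7012.8 and 2954.7 in WT ES versus 3784.6 and 1000.6 in KO ES, and 2359.6 and 6968.9 in WT EB4 against 2026.9 and 1731.7 in KO EB4. At EB5 it had 1778.5 and 2083.2 in WT versus 1790.0 and 1571.9 in KO, and at EB8 2181.1 and 1881.4 against 2818.1 and 1630.9. The groups were apart at EB4 alone. None of its log2 changes passed, with -1.23 at ES (limma adjusted p 0.465), -1.11 at EB4 (0.299), -0.20 at EB5 (0.887) and 0.08 at EB8 (0.942).

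The highest values of Thbs1 and Cyr61 came from the same libraries, WT ES replicate 1 and WT EB4 replicate 2, each at least 6968.9 normalised counts for both genes. Without WT EB4 replicate 2 the log2 change at EB4 was -1.04 for Thbs1 and -0.33 for Cyr61. Leaving out 1 ES library at a time gave ES changes from -2.69 to -0.83 for Thbs1 and from -2.18 to -0.27 for Cyr61, the lowest without KO ES replicate 1 and the highest without KO ES replicate 2. Neither gene passed in these fits. Without WT EB4 replicate 1, the EB4 change of Thbs1 was -2.92 (limma adjusted p 0.0451).

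Ctgf (ENSMUSG00000019997, chr10:24315248-24318489, plus strand) encodes another secreted CCN protein. A long noncoding RNA gene, Gm15270, overlaps it on the opposite strand and had 2.1 to 17.5 normalised counts, against at least 688.9 for Ctgf. Ctgf had 3090.9 and 1237.4 in WT ES versus 3254.2 and 1069.2 in KO ES, and 3840.3 and 2269.0 in WT EB4 against 1928.8 and 1466.3 in KO EB4. At EB5 it had 2046.7 and 1519.8 in WT versus 1752.1 and 1315.9 in KO, and at EB8 688.9 and 714.7 against 866.2 and 777.6. KO was below WT at EB4 and above it at EB8, with log2 changes of -0.81 (limma adjusted p 0.353) and 0.23 (0.779) that did not pass. The change was -0.07 at ES (limma adjusted p 0.979) and -0.22 at EB5 (0.84), where the values overlapped.

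Ankrd1 (ENSMUSG00000024803, chr19:36186455-36194334, minus strand), a nuclear ankyrin-repeat protein of muscle and endothelium, was at the limit of detection in part of the KO libraries. It had normalised counts of 30.9 and 34.3 in WT ES versus 4.2 and 5.0 in KO ES, from 5 and 7 reads in the KO libraries. At EB4 it had 15.3 and 38.6 in WT versus 5.8 and 1.3 in KO, the last from 1 read. At EB5 it had 19.8 and 14.3 in WT versus 15.2 and 8.7 in KO, and at EB8 44.1 and 10.6 against 3.2 and 8.5, with 3 reads in KO EB8 replicate 1. The genotypes were apart at ES, EB4 and EB8 and overlapped at EB5. The log2 changes were -2.59 at ES (limma adjusted p 0.211), -2.69 at EB4 (0.0633), -0.51 at EB5 (0.759) and -1.86 at EB8 (0.108), and none passed.

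**Figure D3:**
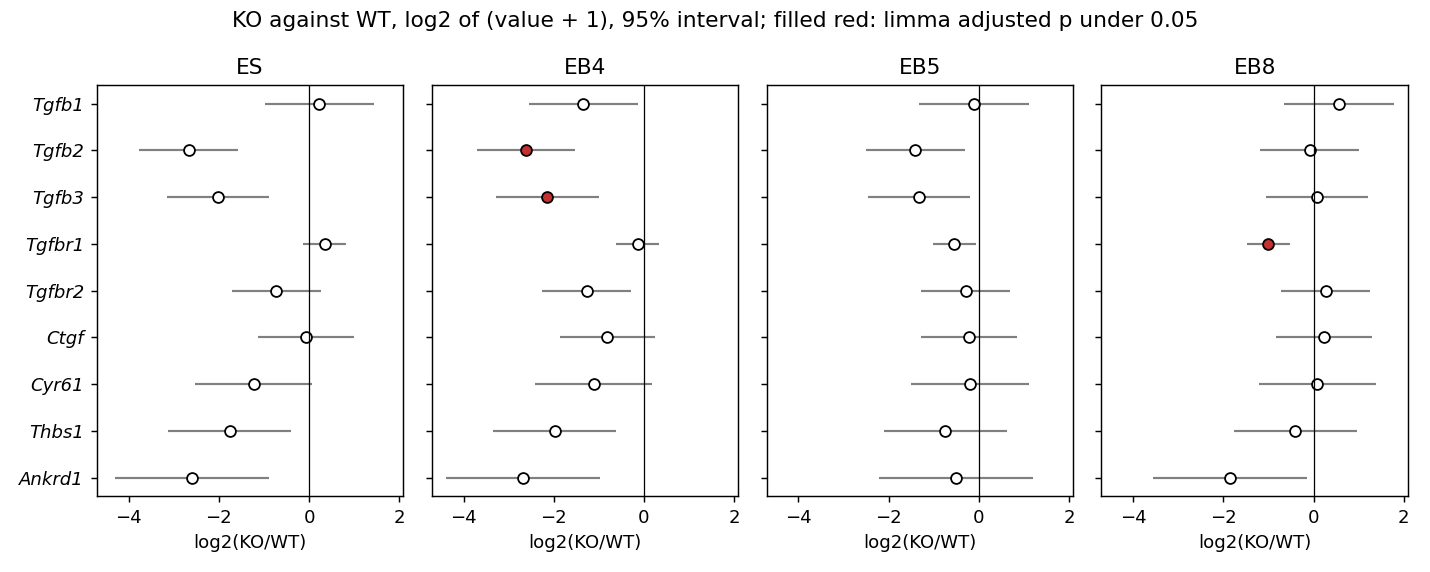
Log2 change between KO and WT (horizontal axis, on log2 of value + 1) of the 9 genes at each stage, with the 95% interval of the fit as a bar. Filled red points are past a limma adjusted p of 0.05, namely Tgfb2 and Tgfb3 at EB4 and Tgfbr1 at EB8. The intervals of Ankrd1 are the widest and those of Tgfbr1 the narrowest.

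Across the group, 2 of the 9 genes passed at EB4, where 6.12% of all genes tested did, and 1 at EB8, where 22.9% did, all lower in KO. By limma 0 passed at ES and 0 at EB5, where 4.34% of all genes did. Unadjusted p-values were below 0.05 for 4 genes at ES, 6 at EB4, 3 at EB5 and 2 at EB8, against 11.4%, 22.7%, 20.7% and 36.0% of all genes tested. edgeR on the recovered reads gave 0, 2, 0 and 1 genes in the order of the stages, against 0.0%, 5.03%, 3.74% and 22.0% of all genes. DESeq2 gave 2, 5, 1 and 1, against 1.67%, 7.52%, 6.34% and 16.8% of the 27807 genes without the filter on low values. That total includes low genes, which DESeq2 can leave without an adjusted p. Its shares, here and below, may therefore be too low a background for the 9 genes, which all passed the filter. The 5 genes past the threshold with DESeq2 at EB4 were Tgfb2, Tgfb3, Tgfbr2, Thbs1 and Ankrd1. The median log2 change of the 9 genes was -1.23 at ES, -1.34 at EB4, -0.51 at EB5 and 0.07 at EB8, beside medians of all genes of -0.0033, -0.0042, -0.0080 and -0.029.

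Both KO libraries lay below both WT libraries in 5 of the 9 genes at ES (Tgfb2, Tgfb3, Tgfbr2, Thbs1 and Ankrd1), where 20.7% of all genes tested did. At EB4 all 9 genes had that arrangement, against 26.6% of all genes. At EB5 it was 5 of 9 (Tgfb2, Tgfb3, Tgfbr1, Tgfbr2 and Thbs1), against 28.1%, and at EB8 it was 3 of 9 (Tgfbr1, Thbs1 and Ankrd1), against 33.5%. The opposite arrangement, with both KO libraries above both WT libraries, occurred in 0, 0, 0 and 1 of the 9 genes, the last being Ctgf at EB8, where 19.0%, 25.3%, 26.7% and 30.4% of all genes had it. The share at EB8 was near that of all genes. Since the 9 genes were chosen with earlier results of these data known, these shares describe the group and do not test it.

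Markers of other cells were summed beside these differences. Fibroblast markers were included because the ES cells were grown on feeders, and the methods describe removing the feeders before embryoid bodies were formed in spontaneous differentiation. Their summed level was 1697 to 3467 normalised counts in the WT ES libraries and 378 to 713 in KO ES, and 2452 to 2983 in WT EB4 against 930 to 1077 in KO EB4. Of the 12 markers, 8 had both KO values under both WT values at ES and 5 at EB4, against 20.7% and 26.6% of all genes tested. The 8 include Lum, too low to be tested, with 0.9 and 0.8 normalised counts in WT ES against 0.0 and 0.7 in KO ES. Of the 10 tested, 0 passed at either stage by limma. At an unadjusted p below 0.05 there were 6 at ES and 3 at EB4, against 11.4% and 22.7% of all genes. Fap was listed at 0 in both WT ES libraries, and Lum in the 4 EB4 libraries.

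The 6 smooth muscle markers, which include known targets of TGF-beta and of the actin-regulated factor SRF, summed to 5093 to 14909 normalised counts in WT ES and to 806 to 6596 in KO ES. At EB4 they summed to 4987 to 7686 in WT and to 1283 to 2672 in KO. Of the 6, 5 had both KO values under both WT values there, against 26.6% of all genes tested. By limma 0 of the 6 passed at ES or EB4. At an unadjusted p below 0.05 there were 2 at each stage, against 11.4% and 22.7% of all genes. At EB5 the smooth muscle sums overlapped, with 2231 to 4761 in WT and 2136 to 2504 in KO, while both KO values of Tgfb2, Tgfb3 and Thbs1 were under both WT values, and the fibroblast sums were 3210 to 6039 in WT and 2014 to 2233 in KO. At EB8 the smooth muscle sums were 1137 to 2934 in WT and 961 to 987 in KO, and Acta2 was lower in KO (298.2 and 245.6 against 11.6 and 103.3 normalised counts, limma adjusted p 0.0434). Of the 6 markers at EB8, 3 had both KO values under and 2, Des and Myh11, had both KO values over the WT values. These arrangements were found in 33.5% and 30.4% of all genes tested. The part of these cells in the differences of Tgfb2, Tgfb3, Thbs1, Cyr61 and Ankrd1 was not tested, and in such bulk libraries fewer cells of a type and less RNA per cell cannot be told apart. At EB8 the fibroblast sums overlapped, with 3838 to 3888 in WT and 2080 to 5526 in KO. The values of Tgfb2, Tgfb3 and Cyr61 overlapped at that stage too, while both KO values of Thbs1 and Ankrd1 were under both WT values.

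**Figure D4:**
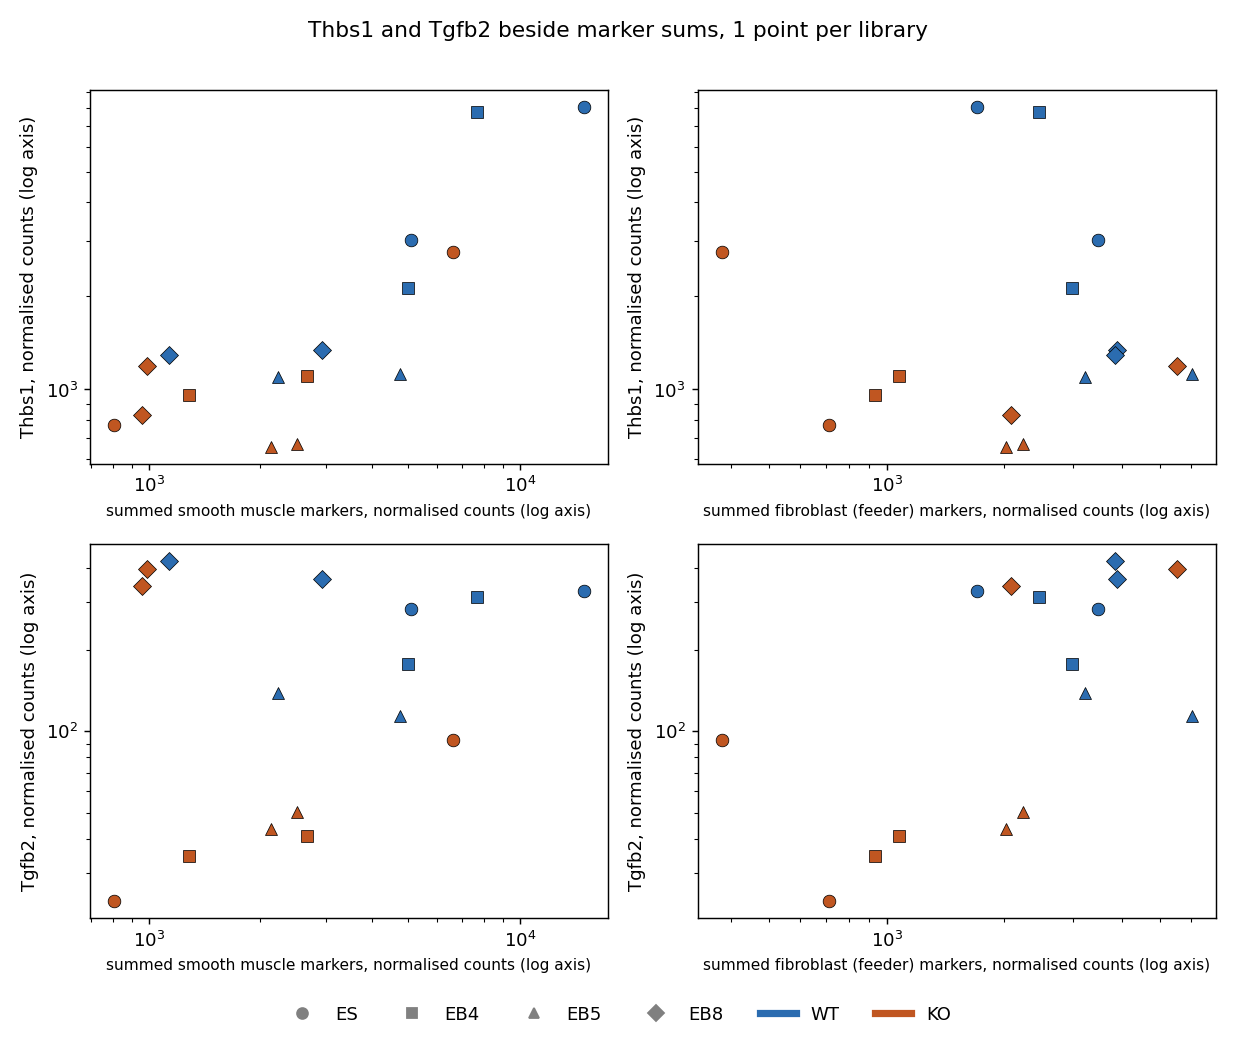
Thbs1 (upper panels) and Tgfb2 (lower panels) in normalised counts against the summed normalised counts of 6 smooth muscle markers (left) and of 12 fibroblast markers (right), all on log axes. Each point is 1 of the 16 libraries, with stage as symbol and genotype as colour. WT ES replicate 1 and WT EB4 replicate 2 have the highest smooth muscle sums (14909 and 7686) and the highest Thbs1. The 4 EB8 libraries have high Tgfb2 at smooth muscle sums of 961 to 2934.

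Over the stages, changes that passed were found from EB5 to EB8. In KO, Tgfb2 rose from EB5 to EB8 by 2.95 ± 0.50 (SE) on the log2 scale and Tgfb3 by 3.08 ± 0.52 (limma adjusted p 0.0238 for each), changes of 7.75-fold and 8.48-fold, in a step in which 0.738% of all genes passed. In WT the same step gave log2 changes of 1.64 for Tgfb2 (limma adjusted p 0.058) and 1.69 for Tgfb3 (0.0613), which did not pass. Both passed with DESeq2 (adjusted p 0.00818 and 0.00603) and with a pseudocount of 5 (limma adjusted p 0.0473 and 0.0437). Tgfbr1 rose in WT by 1.07 ± 0.22 (SE, limma adjusted p 0.0088), where 10.4% of all genes passed, and its change in KO was 0.61 (0.245).

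Each of these calls was lost when some single libraries of the step were left out. For Tgfb2 in KO, leaving out any of the 4 EB5 and EB8 libraries ended the call (limma adjusted p from 0.0761 to 0.169). Tgfb3 kept it only without KO EB5 replicate 1, and failed without KO EB5 replicate 2 (limma adjusted p 0.198), KO EB8 replicate 1 (0.0633) or KO EB8 replicate 2 (0.149). A fit of these 4 libraries alone gave 0.0915 for Tgfb2 and 0.16 for Tgfb3. Tgfbr1 in WT failed without WT EB5 replicate 1, WT EB8 replicate 1 or WT EB8 replicate 2, with a limma adjusted p of up to 0.103.

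In the other direction, Ctgf had lower values at EB8 than at EB5 in each genotype, with log2 changes of -1.33 in WT (limma adjusted p 0.108) and -0.89 in KO (0.494). The WT change of Ctgf passed in 4 of 27 alternative settings, DESeq2 among them (lowest limma or DESeq2 adjusted p 0.0216). From EB4 to EB5 in WT, the log2 changes were -1.39 for Tgfb1 (limma adjusted p 0.255), -1.87 for Thbs1 (0.152) and 0.83 for Tgfbr1 (0.0583). By limma 0 of the 9 genes passed in WT from ES to EB4 or from EB4 to EB5, where 16.5% and 3.73% of all genes did, or in KO in these steps, where 3.5% and 2.51% did. At an unadjusted p below 0.05 there were 1 and 3 of the 9 genes in WT, against 32.7% and 14.8% of all genes, and 0 and 1 in KO, against 21.4% and 16.3%. edgeR gave 0 genes in each of these 4 comparisons, and DESeq2 gave 0 and 2 in WT and 0 and 1 in KO, where the 2 and the 1 stand beside 3.89% and 3.7% of the 27807 genes.

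Whether a change between stages differed between the genotypes was tested by interaction terms. For adjacent stages 0 of the 9 genes passed, with 0.0% of all genes from ES to EB4, 0.0% from EB4 to EB5 and 0.781% from EB5 to EB8, and 0 of the 9 had an unadjusted p below 0.05 in any of the 3 terms. edgeR and DESeq2 also gave 0 of the 9. The larger rise of Tgfb2 and Tgfb3 in KO from EB5 to EB8 was thus not shown to differ from that in WT, with interaction terms of 1.31 and 1.40 (limma adjusted p 0.629 and 0.616).

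Wider intervals were added after the data were seen. From EB4 to EB8 0 of the 9 genes passed, against 2.75% of all genes, with 5 at an unadjusted p below 0.05 (16.5% of all genes), and edgeR gave 0 and DESeq2 1 (3.89% of the 27807 genes). The interaction term of Tgfb2 was 2.53 there (limma adjusted p 0.0845). From ES to EB8, where 7.29% of all genes passed, Tgfbr1 had a term of -1.35 ± 0.31 (SE, limma adjusted p 0.0228), with means of 1445 and 7473 normalised counts in WT and of 1805 and 3758 in KO at ES and EB8. Tgfb2 had a term of 2.58 ± 0.71 (SE, limma adjusted p 0.0474), with means of 305 and 395 in WT and of 58.3 and 371 in KO at ES and EB8. The Tgfb2 term passed in 9 of 27 alternative settings (limma, edgeR or DESeq2 adjusted p from 0.0111 to 0.115) and was 1.61 without KO ES replicate 2, and that of Tgfbr1 passed in 22 of 27 (0.00262 to 0.0893).

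The genes around the ligands and receptors were taken from lists of the pathway, and counts for these lists are by limma, beside 0.0%, 6.12%, 4.34% and 22.9% of all genes passing from ES to EB8. Of 22 other receptors, binding proteins and Smads, 21 were tested, and 0 passed at ES, 1 higher and 3 lower in KO at EB4, 2 higher and 1 lower at EB5, and 3 higher and 4 lower at EB8. Smad3, which carries the signal of the receptors to the nucleus, was lower in KO at the 3 embryoid body stages, with 1965.1 and 2846.9 normalised counts in WT EB4 against 945.1 and 959.7 in KO EB4 (a log2 change of -1.31, with limma adjusted p 0.0105). Smad7, an inhibitor of the receptors, was higher at EB4, with 1067.5 and 891.1 in WT versus 2217.3 and 2451.5 in KO (1.26, limma adjusted p 0.0265). Ltbp1, which tethers the latent ligand to the matrix, was lower at EB4 (a log2 change of -1.02, with limma adjusted p 0.0241).

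At EB8 the largest change of that list was in Itgb8, an integrin subunit that activates latent TGF-beta, with 2751.3 and 2320.8 normalised counts in WT versus 163.5 and 140.6 in KO (a log2 change of -4.05, with limma adjusted p 0.000606). Eng, which encodes the coreceptor endoglin of endothelial cells, was higher in KO at EB8 with 797.6 and 943.8 against 140.7 and 105.9 (a log2 change of 2.82, with limma adjusted p 0.000367). Eng was also high in ES cells, at 1217.8 and 1459.0 for WT and 926.4 and 1763.9 for KO. Of 6 endothelial markers, Tek and Pecam1 were higher in KO at EB8 (limma adjusted p 0.000227 and 0.00735), Emcn had both KO values under the WT values without passing, and Cdh5, Kdr and Tie1 overlapped. Tek and Pecam1 were themselves present in WT ES, at 734.5 and 920.1 normalised counts for Tek and at 766.4 and 6015.5 for Pecam1. Their part in the change of Eng was not tested.

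Of 12 other TGF-beta targets, all tested, 0 passed at ES, 1 higher and 1 lower at EB4, 0 and 1 at EB5, and 1 and 2 at EB8. Col4a1, a chain of basement membrane collagen, was lower in KO at the 3 embryoid body stages, with log2 changes of -2.07, -2.97 and -1.37, for example 6203.0 and 10331.2 normalised counts in WT EB5 against 1104.5 and 940.6 in KO EB5 (limma adjusted p 0.00408). Tgfb1i1, a focal adhesion protein induced by TGF-beta, had 1170.9 and 909.5 in WT EB8 versus 95 and 110.8 in KO EB8 (-3.32 on the log2 scale, limma adjusted p 0.00361). The median log2 change of this list was -0.70 at ES, -0.64 at EB4, 0.32 at EB5 and 0.33 at EB8. Smad7 and Skil were on this list and on the preceding one, as was Ltbp2.

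Of 20 genes of the Hippo pathway and its effectors, 0 passed at ES, 2 were lower at EB4, 0 passed at EB5, and 1 was higher and 2 lower at EB8. Wwtr1, which encodes TAZ, had normalised counts of 2336.6 and 2778.3 in WT EB4 versus 1565.5 and 1216.2 in KO EB4 (a log2 change of -0.88, with limma adjusted p 0.033). Tead2, a DNA-binding partner of YAP and TAZ, was lower in KO at EB4 (-1.02, limma adjusted p 0.00943) and at EB8, with 8062.8 and 8549.6 in WT against 3444.8 and 3239.4 in KO (-1.31, limma adjusted p 0.000316). Tead4, a relative known from trophectoderm, was higher at EB8 with 308.1 and 311.1 in KO against 152.3 and 113.3 in WT (1.23, limma adjusted p 0.0181).

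Of 18 other YAP-type targets, 17 were tested, and 0 passed at ES, 1 higher and 3 lower at EB4, 1 and 0 at EB5, and 1 and 2 at EB8. Amotl2 and Lats2 were on this list and on that of the Hippo pathway. The receptor kinase Axl had normalised counts of 360.6 and 784.9 in WT EB4 versus 133.2 and 140.4 in KO EB4 (a log2 change of -1.95, with limma adjusted p 0.0177), and F3, tissue factor, was lower (-1.38, limma adjusted p 0.0448). Dlc1 went the other way at all 3 embryoid body stages, with 6367.0 and 8181.4 in KO EB4 against 3135.6 and 2333.3 in WT EB4 (1.42, limma adjusted p 0.01). Both KO libraries were below both WT libraries in 12, 12, 12 and 9 of the 18 genes from ES to EB8. In the same order, 20.7%, 26.6%, 28.1% and 33.5% of all genes tested had that arrangement. The count at ES includes Foxf2, too low to be tested, with 2.7 and 3.2 normalised counts in WT against 2.5 and 0.7 in KO. The median log2 change of the list was -0.88 at ES, -0.79 at EB4, -0.67 at EB5 and -0.31 at EB8. Of 4 other genes of the CCN family 3 were tested, and 0 passed at any stage by limma. At an unadjusted p below 0.05 there were 1, 2, 1 and 1, against 11.4%, 22.7%, 20.7% and 36.0% of all genes. At ES, unadjusted p-values were below 0.05 for 6 of the 21 receptors, binding proteins and Smads, 3 of the 12 TGF-beta targets, 5 of the 20 Hippo genes and 5 of the 17 YAP-type targets, against 11.4% of all genes tested. In the same order of lists, the counts were 10, 6, 9 and 11 at EB4, against 22.7% of all genes. They were 9, 5, 4 and 11 at EB5 (20.7%), and 10, 5, 4 and 5 at EB8 (36.0%).

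**Figure D5:**
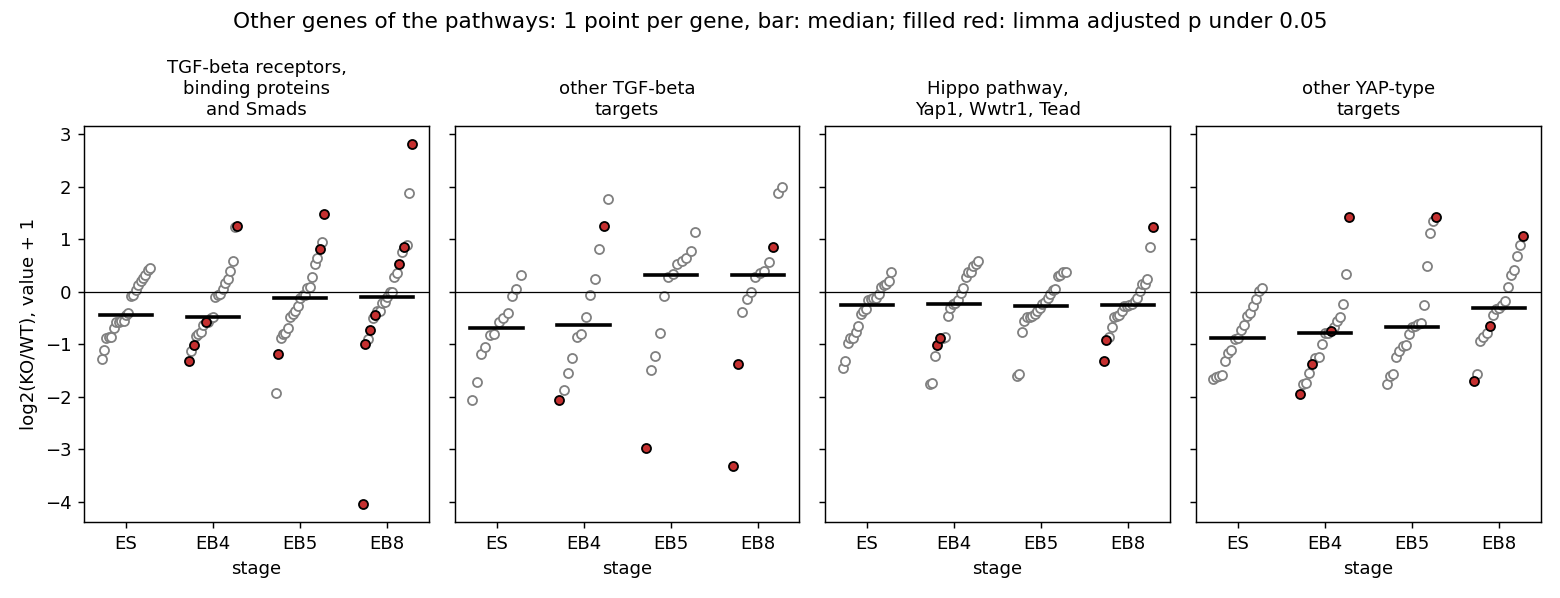
Log2 change between KO and WT (vertical axis, on log2 of value + 1) of the tested genes of 4 pathway lists at each stage (horizontal axis). Each point is a gene, the black bar is the median of the list, and filled red points are past a limma adjusted p of 0.05. The other YAP-type targets have medians of -0.88 at ES and -0.31 at EB8, and Itgb8 at EB8 is the lowest point at -4.05.

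Patterns over the 8 group means were compared as a description, on log2 of value + 1, with groups that share stages and genotypes. The genes most like Tgfb3 were Stk25 (Pearson r = 0.991), Wnt11 (0.989) and Crim1 (0.988, itself on the list of YAP-type targets), and the gene most like Tgfb2 was Cttn (0.98). Tgfbr1 was most like 9130023H24Rik (0.999), Tgfbr2 most like Rhoc (0.978), Ctgf most like Rasd2 (0.989), Tgfb1 most like Ctnnd1 (0.933) and Ankrd1 most like Zfp775 (0.923). Within the group, Thbs1 was among the 3 genes most like Cyr61 and Cyr61 was the gene most like Thbs1, with r = 0.968, and Tgfb2 and Tgfbr2 had r = 0.942.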

How the data were processed

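Whole reads per gene were aligned by the authors with TopHat2 2.0.10 to mm9 (NCBI37), counted with HTSeq 0.5.4p3 and divided by a DESeq2 1.0.19 size factor per library, per the submitters' processing notes. Base calls were made with CASAVA 1.7 and 1.8. The deposited values are thus a normalised signal per gene, in 16 libraries of 8 groups. The library kit (TruSeq RNA v2) does not keep strand and whether counting used strand is not given in the sources used here. In each library 100.0% of values were whole multiples of 1 step (tolerance 0.01 reads), which gave the read counts back, from 22442118 to 40711826 per library. A value from 3 reads or fewer was taken as at the floor. Such floors cover counting error only, since PCR copies are not independent molecules.

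limma 3.58.1 (R 4.3.3) was run on log2(value + 1), a scale that understates the change of low genes, fitting 8 group means to the 16 libraries together, and eBayes with trend (8 residual and 4.27 prior degrees of freedom). Testing was limited to the 16124 genes whose mean reached 10, with Benjamini-Hochberg adjustment over them and a threshold of 0.05. Counts per kilobase used the exon length in GENCODE M1 on NCBI37, in which 27603 identifiers matched and 204 did not. Folds are 2 to the power of the log2 change. Alternatives, among them edgeR 4.0.16 and DESeq2 1.42.0 on the recovered reads, are given in the closing section. The test was checked on simulated data. The simulation gave all genes the same small relative spread beyond counting error. It does not cover genes whose replicates spread widely, such as Thbs1 at ES. Python 3.11.15 with pandas 2.3.3 was used for the remaining steps.

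The genes and lists were chosen with earlier results of these data known. All 9 genes are named in each group, and from each pathway list at most the 3 genes with the largest change among those past the threshold whose KO values lay on 1 side of the WT values. Sox1, of the neural progenitor list, was not matched, and Ajuba was matched by its older symbol Jub.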

Additional observations from a re-analysis of the deposited data

Results flagged for a closer look

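The change of Tgfbr1 from ES to EB8 differed between the genotypes by the interaction term of the fit, -1.35 on the log2 scale (limma adjusted p 0.0228), as Tgfbr1 was higher at EB8 than at ES in both libraries of each genotype and by less in KO. The change of Tgfb2 over the same interval differed by 2.58 in the other direction (limma adjusted p 0.0474), with KO values of 93.0 and 23.6 normalised counts at ES and 342.9 and 398.4 at EB8 against 329.5 and 281.4 and then 365.4 and 424.6 in WT. This comparison was added after the data were seen. The ES libraries were the deepest ones, and WT ES replicate 2 stood apart from the other WT libraries in Ddx3y, at 0 as in part of the KO libraries. Without that library the terms were -1.07 for Tgfbr1 (limma adjusted p 0.073) and 2.69 for Tgfb2 (0.0954), and neither passed. Leaving out 1 library of these groups at a time gave a limma adjusted p from 0.00877 to 0.0893 for Tgfbr1, which also failed without WT EB8 replicate 1, WT EB8 replicate 2, KO ES replicate 1 or KO EB8 replicate 1, and from 0.0112 to 0.115 for Tgfb2, which passed only without KO ES replicate 1 (a term of 3.54) and was 1.61 without KO ES replicate 2. Fibroblast marker sums were 1697 to 3467 normalised counts in WT ES and 378 to 713 in KO ES, and their part in these terms was not tested.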

How the results depend on the processing

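Numbers in this paragraph are how many of the 9 genes passed, unless said otherwise. At EB4 (2 genes) there was 1 gene without the filter or with quantile normalisation, 0 with only the compared groups and 5 with DESeq2, and leaving out libraries gave 0 to 2, with 0 without WT EB4 replicate 2 or KO EB4 replicate 2. At EB8 (1) quantile normalisation gave 2, and leaving out libraries 0 to 1, with 0 without KO EB8 replicate 1. At ES (0) DESeq2 gave 2 and leaving out libraries 0 to 1, with 1 without KO ES replicate 1. At EB5 (0) DESeq2 gave 1, and leaving out libraries 0 to 1, with 1 without either KO ES replicate. From EB5 to EB8 in WT (1) there were 3 with a pseudocount of 5 or only the compared groups, 2 with edgeR and 4 with DESeq2, and leaving out libraries gave 0 to 2. The same step in KO (2) had 0 with only the compared groups, 3 with DESeq2, and 0 to 2 when libraries were left out. From EB4 to EB5 (0) upper-quartile rescaling and quantile normalisation gave 1 and DESeq2 2 in WT, with 0 to 1 when libraries were left out, and DESeq2 gave 1 in KO. From ES to EB4 in WT (0), leaving out libraries gave 0 to 1. Of the interaction terms, EB4 to EB8 (0) had 1 with DESeq2 and 0 to 1 when libraries were left out, and ES to EB8 (2) had 1 with a pseudocount of 0.1, no filter, quantile normalisation, only the compared groups or edgeR, 3 with DESeq2, and 0 to 2 when libraries were left out. The cause of these shifts was not tested. No called change turned in sign. Of genotype differences that had not passed, those of Tgfb1 and Ctgf at ES turned in 2 and 3 of 26 settings, that of Tgfb1 at EB5 in 2 of 27, and those of Tgfb2, Tgfb3, Cyr61 and Tgfbr2 at EB8 in 4, 2, 2 and 1 of 27, and 33 stage changes and interaction terms also turned in at least 1 setting. At EB8 the upper-quartile rescaling put the median over all tested genes at 0.11 (log2). With 1 library left in a group, that library is assumed to vary like the others.

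The replicate number as a block gave 3 genes at EB4 (Tgfb1 was added) and 2 in WT from EB5 to EB8, and a block within genotype gave 4 in that step (Tgfb2 and Tgfb3 among them) and 1, Tgfb1, in WT from EB4 to EB5, with no other call changed in number. The labels do not say what the number marks. Differences between the replicates correlated over genes by 0.233 to 0.422 within KO and 0.523 to 0.605 within WT embryoid bodies, by -0.179 to -0.048 between WT ES and WT embryoid bodies, and between genotypes by 0.335 at ES, -0.058 at EB4, -0.209 at EB5 and -0.133 at EB8. Exchanging the KO numbers, tried after the data were seen, gave 0 genes at EB5 and 1 at EB8. Ankrd1, with as few as 1 read, is limited by depth.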

Other observations

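Markers of 3 further lineages were counted beside the TGF-beta genes. From ES to EB8, 0.0%, 6.12%, 4.34% and 22.9% of all genes tested passed by limma. At an unadjusted p below 0.05 there were 11.4%, 22.7%, 20.7% and 36.0%. Of 6 tested cardiac muscle markers, 0 passed between the genotypes at ES, EB4 and EB5 by limma (2, 2 and 1 at an unadjusted p below 0.05), and 2, Myh7 and Actc1, were lower in KO at EB8. Actn2 and Myl7 had both KO values over both WT values at EB8, and the median log2 change of the list was 0.84. Of 6 tested extraembryonic endoderm markers, 0 passed at ES and EB4 (1 and 1 at an unadjusted p below 0.05). Foxa2 was lower in KO at EB5 and EB8, and Sox17 at EB8. Of all 8 markers of that list, 5 had both KO values under the WT values at EB5 and 6 at EB8. The shares of all genes tested were 28.1% and 33.5%. Afp and Ttr, among those under, were too low to be tested. Both KO values were over the WT values for Amn at EB5 and Sparc at EB8, against 26.7% and 30.4% of all genes. The sums overlapped at EB8, with 6417 to 7605 in WT and 6840 to 8071 in KO. Of 6 endothelial markers, 0 passed at ES and EB5 (1 and 2 at an unadjusted p below 0.05), while at EB4 Pecam1 was higher and Cdh5 lower in KO.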
